A study of Mus musculus with 17 samples.

Results

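The baseline state of the mouse liver was described from the control-diet (CD) libraries alone: 4 poly(A) RNA libraries and 3 chromatin libraries for H3K9ac, 7 of the 17 samples of the series. All came from livers of C57BL/6 mice kept on a diet with 18% of its energy as fat for 10 weeks. Livers carry the letters A, B, C and D in the RNA data and A, C and D in the H3K9ac data. The labels do not say whether a letter marks the same animal in both assays, and give no sex, age, feeding state or hour of collection. No diet contrast was made. The question the study's design text sets for these assays is how the mark relates to transcript abundance. A gene entered the comparison when it had a row in the RNA table and an H3K9ac region assigned to its start site with the region's middle within 1000 bases. This held for 10112 of the 12334 genes with RNA values. The remaining 2222 genes, 18.0% of the 12334, had no such region.

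H3K9ac is the acetylation of lysine 9 on histone H3, which marks nucleosomes beside the start sites of transcribed genes. The liver is built mostly from hepatocytes, which secrete albumin, clotting factors, complement and apolipoproteins into the blood and handle drugs, bile acids, nitrogen and lipids. RNA level is given as FPKM, fragments scaled to the length of the transcript and the size of the library, which compares genes per length. The mark is given as region CPM, counts scaled to the library's total over regions, and as density, which is region CPM divided by region length in kilobases. A percentile places a gene's RNA among all RNA genes, or its density among genes with a promoter region. The top decile of RNA is 1234 genes (10.0% of 12334) when all RNA genes are ranked and 1012 genes among the joined genes. The top decile of density is 1012 of 10112 joined genes (10.0%).

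RNA counts came to 32632118 to 35643097 per library and H3K9ac counts to 10080116 to 12149497 over 57499 regions. Rank correlation of log2 FPKM between RNA libraries was 0.986 to 0.992 across genes, and that of density between H3K9ac libraries 0.985 to 0.991. Genes are not independent replicates, so these values describe the libraries only. Every one of 13 hepatocyte markers lay in the top decile of RNA. Of 18 markers of other organs, 2 had a row, Fabp2 at 52.8 FPKM and Syp at 0.334 FPKM.

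The starts of genes with opposite patterns differed in sequence, and 8 of them are shown first because the later results return to them. Each line gives the 150 bases before the RefSeq start, 5′ to 3′, from RefSeq on GRCm38.p6. Capitals mark the dinucleotide CG and the letters TATAAA on either strand. The first 4 had RNA near the top and density near the bottom of all joined genes, and encode a bile acid and drug carrier, a peroxisomal thiolase, tryptophan dioxygenase and an amine methyltransferase. For Acaa1b a larger region centred outside the window also reached over the start, as given below.
Slco1b2 (chr6:141629368-141629517, plus strand): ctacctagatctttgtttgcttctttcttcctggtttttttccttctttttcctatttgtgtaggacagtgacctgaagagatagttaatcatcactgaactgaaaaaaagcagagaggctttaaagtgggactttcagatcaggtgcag
Acaa1b (chr9:119157094-119157243, minus strand): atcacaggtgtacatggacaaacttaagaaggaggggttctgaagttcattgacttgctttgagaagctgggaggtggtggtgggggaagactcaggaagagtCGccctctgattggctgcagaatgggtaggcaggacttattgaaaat
Tdo2 (chr3:81975729-81975878, minus strand): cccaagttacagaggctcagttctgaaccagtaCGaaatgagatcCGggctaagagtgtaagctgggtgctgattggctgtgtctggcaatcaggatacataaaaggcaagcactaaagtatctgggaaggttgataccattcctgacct
Inmt (chr6:55174991-55175140, minus strand): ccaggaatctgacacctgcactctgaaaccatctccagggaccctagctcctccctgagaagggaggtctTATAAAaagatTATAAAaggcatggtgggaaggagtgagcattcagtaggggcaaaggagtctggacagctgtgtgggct
The other 4 were among those with the highest density, and encode a centrosomal protein, a WD40 repeat protein, a mitochondrial phosphatase and a ubiquitin ligase.
Cep85l (chr10:53379884-53380033, minus strand): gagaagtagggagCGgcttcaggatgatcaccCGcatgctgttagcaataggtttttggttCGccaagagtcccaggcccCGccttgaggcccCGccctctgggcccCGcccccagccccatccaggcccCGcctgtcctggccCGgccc
Wdr26 (chr1:181211979-181212128, minus strand): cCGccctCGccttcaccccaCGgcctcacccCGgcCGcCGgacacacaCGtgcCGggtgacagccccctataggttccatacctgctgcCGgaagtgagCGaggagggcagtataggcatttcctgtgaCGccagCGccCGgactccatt
Ptpmt1 (chr2:90918051-90918200, minus strand): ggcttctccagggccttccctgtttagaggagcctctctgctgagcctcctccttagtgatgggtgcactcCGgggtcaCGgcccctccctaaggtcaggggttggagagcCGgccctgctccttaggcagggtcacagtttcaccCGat
Rnf169 (chr7:99980459-99980608, minus strand): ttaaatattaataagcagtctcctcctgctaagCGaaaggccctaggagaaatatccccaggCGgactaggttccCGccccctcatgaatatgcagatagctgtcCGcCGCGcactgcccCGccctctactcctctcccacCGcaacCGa
In these windows Slco1b2 and Inmt held 0 CG, Acaa1b 1 and Tdo2 2, against 8 in Cep85l, 13 in Wdr26, 4 in Ptpmt1 and 9 in Rnf169. The letters TATAAA occurred only in Inmt among the 8.

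Of the 15 genes with the highest RNA, all but Fabp1 encode secreted proteins. Albumin RNA (Alb, the main carrier protein of plasma) read 32823, 33148, 31914 and 39326 FPKM in livers A, B, C and D, and liver D was the highest. It made up 6.31% to 7.87% of the summed FPKM of a library. The 10 highest genes of each library held 22.01% to 23.04% of the sum and the 100 highest 48.5% to 50.8%. The median gene stood at 5.29 FPKM and the top decile began at 47.2 FPKM.

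Among the 15 highest genes, 3 were major urinary proteins, which carry pheromones. Mup20 read 11876, 12078, 10870 and 11058 FPKM in livers A to D, and Mup3 12409, 9919, 10622 and 11579. The ranges of these 2 genes overlapped. Mup7 stood lower, at 4903 ± 1015 FPKM (SD, n = 4). Apolipoproteins, the protein part of blood lipid particles, took 4 places: Apoe at 9072 ± 819.8 FPKM, Apoa1 at 6794 ± 1233, Apoc1 at 4512 ± 818 and Apoa2 at 3887 ± 671 (SD, n = 4 each). The protease inhibitors Serpina1e, at 8791 ± 1335 FPKM, and Serpina3k, at 7580 ± 1346, had their highest value in liver A. The remaining genes were Fabp1, which binds fatty acids in the cell, at 7569 ± 755 FPKM, the iron carrier Trf at 7465 ± 486, Ahsg at 4320 ± 481, the thyroxine carrier Ttr at 4222 ± 954 and the fibrinogen chain Fgb at 3699 ± 415 (SD, n = 4 each). Mup and Serpina1 genes are near-identical copies, so the share of reads given to each copy is uncertain.

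**Figure D1:**
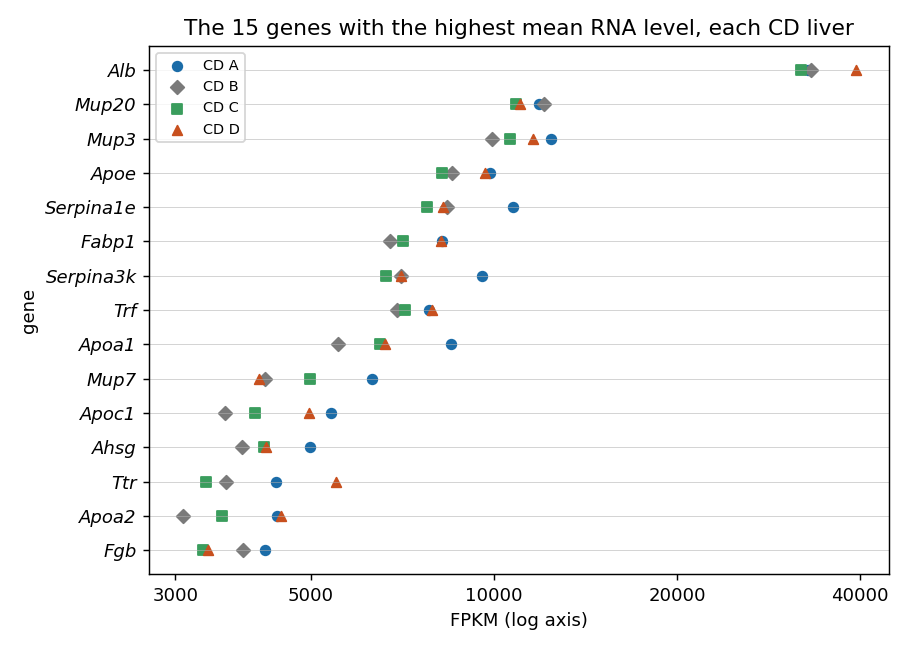
RNA level (FPKM, log axis) of the 15 genes with the highest mean, with 1 point for each of the 4 CD livers. Alb was lowest in liver C, at 31914 FPKM, and liver A was the highest for Serpina1e and Serpina3k.

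The highest H3K9ac density lay on another kind of gene. Cpeb2, which binds mRNA tails and controls translation, carried 154, 168 and 162 CPM per kilobase in livers A, C and D, on a region of 3497 bases at chr5:43232260-43235756 (mm10) over its start. Its RNA was 8.64 ± 1.58 FPKM (SD, n = 4). Cep85l followed with 156, 160 and 157 CPM per kilobase at 3.81 ± 1.2 FPKM. Wdr26 had a density of 148 ± 6.83, Ptpmt1 148 ± 0.58 and Rnf169 147 ± 1.83 CPM per kilobase (SD, n = 3 each). These 5 genes ranged in RNA from 3.81 FPKM for Cep85l to 28.9 FPKM for Ptpmt1, all below the top decile of RNA.

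Of the 15 genes with the highest density, 3 were also in the top decile of RNA. Itm2b, a membrane protein, had 508 ± 36.5 FPKM and 130.2 ± 7.55 CPM per kilobase. Abcd3, a peroxisomal membrane transporter, had 245 ± 12.7 FPKM and 132 ± 7.64 CPM per kilobase. Ei24, a protein of the endoplasmic reticulum, had 86.9 ± 4.42 FPKM and 131 ± 8.78 CPM per kilobase. Rbm33, Kcmf1, Hexim2, Wac, Whamm and Arid1a were also among the 15, with RNA between 0.826 FPKM for Hexim2 and 18.0 FPKM for Kcmf1.

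Without division by length another set of genes led, with Cpeb2 and Arid1a among the first of both rankings. Irf2bp2, a nuclear corepressor, had 606, 630 and 567 CPM in livers A, C and D on 7354 bases. Brd2, a reader of acetylated histones, had 584, 596 and 554 CPM, Zmiz1 584, 555 and 536, and the ribosomal RNA gene factor Ubtf 516, 536 and 592. Cebpb, a liver transcription factor, had 517, 531 and 494 CPM on 8435 bases, at 26.4 ± 6.07 FPKM. Foxo3, Midn, Zfp36l1, Cpeb2 and Arid1a completed the first 10, with Arid1a lowest at 417, 430 and 470 CPM. All of these genes encode regulators of transcription or RNA apart from Midn, which acts in protein turnover.

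Across the 10112 joined genes, density rose with RNA and then levelled off. Spearman's rho was 0.406 and Pearson's r of the log2 values 0.386, over genes that share libraries and depth. Median density was 11.1 CPM per kilobase in the lowest decile of RNA, 18.6 in the second, 27.2 in the third, 36.2 in the fourth and 39.3 in the fifth. From there it was 41.7, 43.0, 45.8, 45.0 and, in the highest decile, 38.5. The ratio of the highest to the lowest decile was 3.46. In each H3K9ac library taken alone it was 3.68 for liver A, 3.52 for liver C and 3.12 for liver D.

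**Figure D2:**
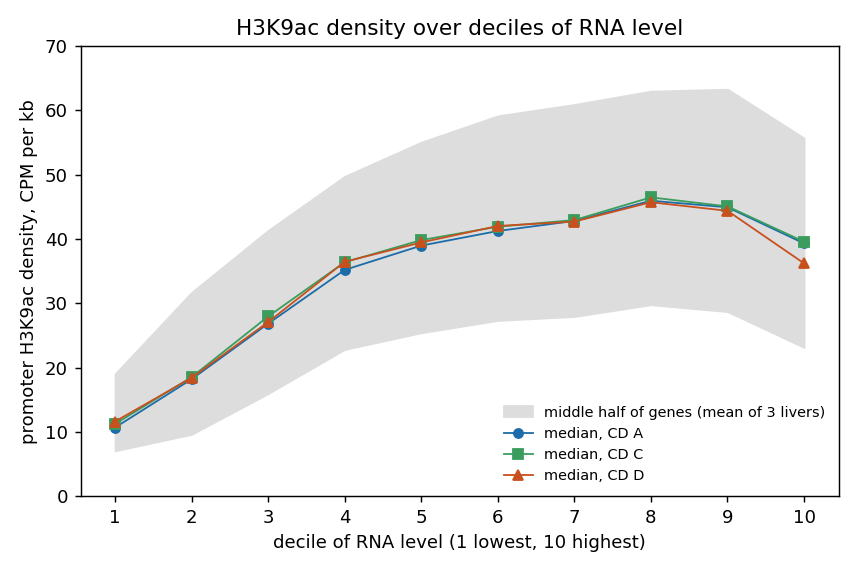
Median promoter H3K9ac density (CPM per kilobase) in each decile of RNA level, with 1 line for each CD liver and the middle 50% of genes shaded. The median rose from 11.1 to 45.8 CPM per kilobase over the first 8 deciles and was 38.5 in the highest.

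The rise lay in genes of low RNA. Among the 5056 genes below the median RNA of joined genes, rho was 0.503, and among the 5056 at or above it, rho was -0.034. This second value was 0.033 with region CPM in place of density and 0.062 with RNA as CPM, so it has no stable sign. The top decile of RNA had a lower median density than the ninth, by a ratio of 0.854. This ratio was 0.875 in liver A, 0.878 in liver C and 0.816 in liver D, so the drop was present in each library. Its size is modest beside the spread over genes, whose middle 50% ran from 23.1 to 55.7 CPM per kilobase in the top decile.

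High RNA and high density met in few genes. Of the 1012 joined genes in the top decile of RNA, 129 (12.7%) were also in the top decile of density, against the background of 10.0%. Another 90 (8.89%) were in the bottom decile of density. In 38 of these 90 the region with most CPM within 5000 bases was centred over 1000 bases downstream, and in 2 upstream. Among all 10112 joined genes this held for 216 and 75. Median CPM of the 90 was 3.34 in the window and 7.36 within 5000 bases, against 52.2 and 53.1 for all joined genes. Of the 1012 genes in the bottom decile of RNA, 346 (34.2%) were in the bottom decile of density and 7 were in the top. The count high in both measures, 129, was 193 with RNA as CPM and 152 with region CPM.

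**Figure D3:**
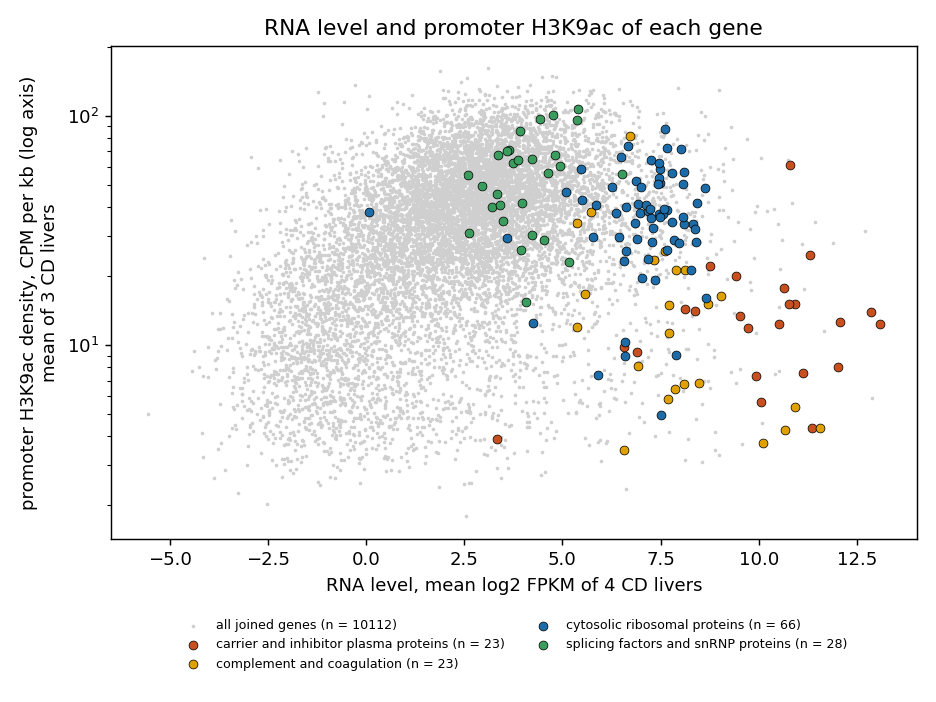
Promoter H3K9ac density (CPM per kilobase, log axis, mean of 3 livers) against RNA level (mean log2 FPKM of 4 livers) for 10112 joined genes, with 4 gene lists in colour. Plasma proteins and clotting and complement genes lie at the far right and mostly below the median density of 34.2, while splicing factors have a median RNA percentile of 76.2 and a median density percentile of 78.7.

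The 12 genes with the widest gap of RNA over mark encode enzymes, a carrier and blood proteins. Tdo2, which starts tryptophan breakdown, had 749, 757, 822 and 726 FPKM in livers A to D and 2.9, 4.35 and 3.89 CPM per kilobase in livers A, C and D. Plg, plasminogen, had 1114 ± 99.1 FPKM and 3.73 ± 0.212 CPM per kilobase. C3, the central complement protein, had 1633 ± 159 FPKM and 4.25 ± 1.71 CPM per kilobase, and the fibrinogen chain Fgg 3043 ± 410.5 and 4.34 ± 2.74. The esterases Ces1d and Ces3a had 514 ± 60.2 and 1089.6 ± 141 FPKM at densities of 3.31 ± 0.157 and 4.57 ± 0.909. Slco1b2, Acaa1b, Inmt, Serpina1b, Cyp1a2 and Aox3 completed these 12. Their regions are small: that of Slco1b2 held 25, 9 and 10 counts in livers A, C and D, and that of Inmt 9, 9 and 11. At such counts the densities of single genes are imprecise, and they lie near the lowest density of any joined gene, 1.79 CPM per kilobase. At Acaa1b and C3 a larger region centred outside the window also reached over the start, as given below.

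In the reverse gap, 6 of the 12 widest were at genes whose region also held the start of another gene with an RNA value. Sp3os, an RNA gene beside the transcription factor gene Sp3, had 0.454 ± 0.174 FPKM and 128 ± 9.02 CPM per kilobase, and its region also held the start of Sp3, with a log2 FPKM of 3.51. The region of Gm6297 held the start of Dnaja1 at a log2 FPKM of 4.78, and that of Spata1 the start of Gng5 at 5.95. Of the 7 genes with bottom-decile RNA and top-decile density, 6 had another gene's start in the region, against 1673 of 10112 joined genes (16.5%). Nr4a2, an immediate early nuclear receptor gene, had no other RefSeq start in its region. It had 0.138 ± 0.051 FPKM and 66.2 ± 9.46 CPM per kilobase. Zc3h6 and Hexim2 likewise had no other RefSeq start there. They had 0.691 ± 0.183 and 0.826 ± 0.158 FPKM, at 115 ± 5.2 and 136 ± 1.36 CPM per kilobase. RefSeq starts were missing unevenly over the genome, so other starts may be missed here and in the count of 1673.

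Many of the highest RNAs had no region under the 1000-base rule. Of the 1234 genes in the top decile of RNA, 284 (23.01%) had none, against 18.0% of all RNA genes. They included Alb, Mup20, Mup3, Apoe, Trf, Mup7, Apoc1, Fgb, the vitamin D carrier Gc and Mgst1, a glutathione transferase of membranes. The nearest region naming Alb had its middle 12790 bases from the start, and that of Mup20 33673 bases.

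The distance in the deposited table runs from a region's middle, so a long region can cover a start and still be left out. This was so for 112 of the 284 genes. The region at Apoe was 15475 bases long with its middle 1829 bases from the start and a mean of 374 CPM, and it covered the start (chr7:19688831-19704305, mm10). The start of Hnf4a, a nuclear receptor of hepatocytes, lay inside a region of 4102 bases with 144, 122 and 106 CPM in livers A, C and D and its middle at 1173 bases. That of Eef1a1, a translation elongation factor, lay inside one of 3764 bases with 229, 227 and 226 CPM. When only regions that name the gene and cover its deposited start were used, 220 top-decile genes had none. With any region over a RefSeq start, whichever gene it names, the count was far smaller. Of 996 top-decile genes with a RefSeq start, 95 (9.54%) had none, against 7.46% of all 9873 RNA genes with one, and 162 of the 222 such genes among the 284 had a region there. RefSeq starts were missing unevenly over the genome, and no joined gene on chromosome 18 had one. The count under the rule by distance was 496 with a window of 500 bases and 97 with 5000 bases, so it is set largely by the window.

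Regions farther out were also counted. Of the 284 genes, 187 (65.8%) had a region whose middle was within 5000 bases, against 696 of the other 1938 RNA genes without a promoter region (35.9%). In 163 of the 187 the region with most CPM had its middle downstream of the start, in the direction of transcription, and in 24 upstream. Among the 696 it was upstream in 145 and downstream in the rest. The regions of the 187 had a median length of 3151 bases and a median of 77.6 CPM. Acaa1b was a case among the joined genes: the region chosen within the window held 2.5, 2.3 and 3.57 CPM in livers A, C and D, while one of 5347 bases centred 2546 bases downstream held 133 CPM. C3 likewise had 77.6 CPM on 5451 bases centred 2615 bases downstream. By length and centre both regions reached over the start. The low density given for Acaa1b and C3 is that of another region with less CPM, chosen by the window. Tdo2 had none larger within 5000 bases than its own, at 2.18 CPM.

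Among 70 of the 284 genes no region named the gene. Cyp3a11, the main drug-oxidising P450 of mouse liver, was one, with 1741, 2262, 1567 and 1887 FPKM. Mup7 was another. Both belong to families of near-identical copies, where reads may be shared among copies or not placed, and whether that touches the absence of regions was not tested.

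Median density varied widely among gene lists, and the list medians are set beside 50, the middle percentile of all genes. Lists of secreted and detoxifying functions combined RNA near the top with density below the middle. The 33 carrier and inhibitor plasma proteins had a median RNA percentile of 99.6, with 32 in the top decile, and the 23 with a region a median density percentile of 16.3, with 0 in the top decile. Orm2, an acute phase protein, was their lowest at 12.03 ± 6.73 FPKM. Rbp4, the retinol carrier, was the exception in density, at 61.3 ± 1.4 CPM per kilobase with 1797 FPKM. The 33 complement and coagulation genes had medians of 97.9 for RNA and 15.4 for density in 23. F5, clotting factor V, had the highest density of these, 81.4 ± 7.81 CPM per kilobase, on a region of 887 bases.

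The 35 drug and steroid P450s had a median RNA percentile of 94.8, and 20 of them had no region. Cyp2e1, which oxidises ethanol, led at 3267 FPKM and 11.6 ± 2.28 CPM per kilobase. Cyp2b9 was lowest, with 1, 1, 0 and 1 counts in livers A to D. All 14 measured major urinary protein genes were without a region, and their RNA ran from 1.65 FPKM for Mup6 to that of Mup20. Glutathione transferases, 21 genes, had medians of 92.0 and, in 16, 21.3. The 13 apolipoproteins had medians of 99.2 and, in 8, 33.3, where the second value was 57.1 with region CPM, 13.9 with the nearest region and 10.1 with a window of 500 bases.

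Lists of central metabolism had RNA nearly as high and more of the mark. The median percentiles of RNA and density were 97.1 and 41.3 for 30 genes of amino acid breakdown and 95.4 and 37.2 for 19 of glucose metabolism, of which 25 and 14 had a region. They were 96.7 and 42.5 for 25 genes of bile acid synthesis and transport, of which 17 had a region. For 24 genes of cholesterol synthesis they were 90.8 and 45.9, and for 29 of fatty acid oxidation and ketogenesis 95.1 and 53.1. The 20 genes of de novo lipogenesis had 94.3 and 69.1, but 11 had no region under the rule, among them Fasn, Acly, Me1 and Srebf1. The 9 genes of the urea cycle list had 97.7 and 78.2. The second value is over 5 genes, from Cps1 at 7.85 ± 2.83 to Slc25a13 at 81.9 ± 5.17 CPM per kilobase. It is the percentile of Glul, at 55.4 CPM per kilobase. Glul encodes glutamine synthetase, which is not an enzyme of the cycle itself. These middle values move with the rule for regions: 5000 bases gave 47.2 for lipogenesis and 50.7 for the urea cycle, and region CPM gave 70.6 for glucose metabolism and 66.5 for bile acids. Ass1, an enzyme of the urea cycle, read 1.1, 0.755, 0.800 and 0.948 FPKM in livers A to D and had no region within the window. This is far below Cps1 at 734 and Arg1 at 673 FPKM in the same list. Whether read placement or counting lowers the value for Ass1 was not tested, so its level is uncertain.

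Lists of ribosomal, respiratory, proteasome, translation and splicing genes had medians above the middle in both measures, except that mitochondrial ribosomal proteins stood at 43.7 in the mark with region CPM. Cytosolic ribosomal proteins, 81 genes, had medians of 96.5 for RNA and, in 66, 55.4 for density. For 77 nuclear genes of oxidative phosphorylation the medians were 95.8 and 64.0, with Atp5b highest in RNA at 568 ± 34.8 FPKM and 72.4 ± 4.19 CPM per kilobase. Proteasome subunits had 90.9 and 66.8, translation initiation factors 83.9 and 66.8, and mitochondrial ribosomal proteins 81.2 and 55.8. Splicing factors had a median density percentile of 78.7, at a median RNA percentile of 76.2. The 78.2 of the urea cycle list is the value of Glul alone. Srsf2 and Srsf6, which select splice sites, had 107 ± 3.55 and 101.1 ± 3.99 CPM per kilobase at 42.0 and 27.1 FPKM. Rps27, Rpl30 and Rpl34 read 1.1, 1.07 and 2.76 FPKM, far below the other ribosomal protein genes. Many such genes have processed copies in the genome, so their levels are uncertain.

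Immediate early and Zfp genes had higher median percentiles in density than in RNA, while for clock genes the order depended on the rule for regions. The 19 clock genes had medians of 56.6 for RNA and, in 15, 68.3 for density. Clock itself had 8.91 ± 1.81 FPKM and 123.02 ± 5.42 CPM per kilobase. Among the 17 immediate early genes, which respond within minutes to stimuli, medians were 47.4 and 66.2, on long regions with a median of 4226 bases. Jun had 7.98, 14.05, 7.94 and 10.9 FPKM in livers A to D and 98.2, 100.8 and 91.4 CPM per kilobase in livers A, C and D. The summed RNA of the list was 151, 153, 162 and 260.2 FPKM in livers A, B, C and D, so liver D stood apart. Zfp36 and Dusp1, a phosphatase, were highest there. The density median of clock genes was 45.1 with regions over the start and 49.1 with a window of 5000 bases, both below their RNA median. The 282 Zfp zinc finger genes had 26.3 and 44.1. Hepatocyte transcription factors had 83.8 and 62.7, with Atf5 and Hnf4a highest in RNA, at 168 ± 20.4 and 167 ± 17.4 FPKM. Of the enzymes that write and erase histone acetylation, the acetyltransferases Ep300 and Kat2b had 119 ± 1.72 and 117 ± 5.69 CPM per kilobase, at 5.07 and 24.8 FPKM. This list as a whole had medians of 48.8 and 50.2.

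**Figure D4:**
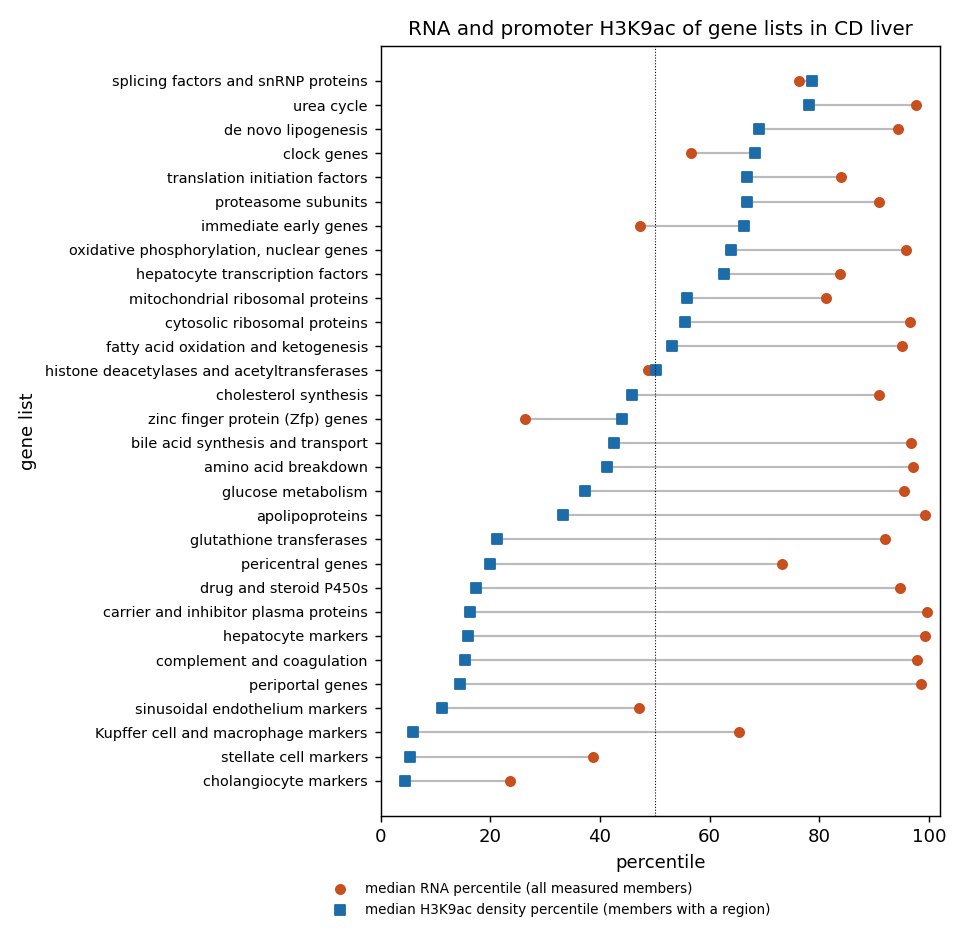
Median RNA percentile (circles) and median H3K9ac density percentile (squares) of each gene list with 5 or more members that had a region. The dotted line marks 50. Among the widest gaps are those of plasma proteins, hepatocyte markers, complement and periportal genes, and splicing factors lie at 78.7 for density. The density median of hepatocyte markers, 16.0, was 37.4 with regions over the start and 9.67 with region CPM.

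Markers of the minor liver cell types had low density, and their RNA ranged from below the middle to above it for Kupffer cells. The 14 markers of Kupffer cells, the resident macrophages, had a median RNA percentile of 65.4, and the 6 with a region a median density percentile of 5.87. Clec4f read 23.1 ± 2.8 FPKM and 5.06 ± 0.41 CPM per kilobase. For sinusoidal endothelium the medians were 47.1 and 11.2, for stellate cells 38.8 and 5.37 and for cholangiocytes, which line bile ducts, 23.6 and 4.44. With region CPM the density medians were 6.29 for endothelium, 9.41 for stellate cells and 8.96 for cholangiocytes, and with regions over the start the last 2 were 3.51 and 2.80. In bulk tissue, fewer cells of a type and less RNA or mark per cell cannot be told apart. Zonal genes of the lobule were low in density, with medians of 14.4 for the 10 periportal genes with a region and 19.9 for the 16 pericentral genes with one. These were 8.70 and 26.1 with region CPM, and 10.5 and 29.6 with a window of 500 bases. The RNA medians, over 16 and 18 genes, were 98.5 and 73.2.

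Promoter sequence was compared between genes high in both measures and genes with high RNA and low density. A RefSeq window of 250 bases before to 50 after the start was found for 8114 of the 10112 joined genes, by symbol. The gaps were uneven over the genome. None of the 253 joined genes on chromosome 18 had a window, while 227 of 408 had one on chromosome 15 and 375 of 556 on chromosome 8. The number of CG dinucleotides in it had a rho of 0.449 with density and of 0.026 with RNA, across genes. The median was 22 CG for all joined genes. In the 106 of 129 genes high in both measures that had a window it was 27, and in the 73 of 90 genes with high RNA and low density it was 4. The median over all 32851 RefSeq windows was 7. Median CG rose over deciles of density from 18 in the third to 30 in the highest. Fewer than 80% of genes had a window in the 2 lowest deciles of density, so no value is given for them.

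Short motifs were counted in the same windows. The letters TATAAA, searched on both strands, were in 24.7% of windows of genes with high RNA and low density, 12.3% of those high in both, 6.58% of all joined genes and 13.6% of all RefSeq windows. The letters GGGCGG, the core of a GC box, were in 17.8%, 75.5%, 67.7% and 35.7%. CCAAT was in 39.7%, 37.7%, 38.1% and 37.4%, with little difference. The motifs were not required to lie apart from each other, and a match is not a binding site. Among lists, the median number of CG was 3 for plasma proteins, 3 for major urinary proteins and 2 for P450s, against 24 for splicing factors and 29 for clock genes, all with windows for at least 80% of members. Within the 4049 genes with fewer CG than the median of 22, rho of RNA and density was 0.380, and within the 4065 others 0.440. Median density was 25.5 and 43.7 CPM per kilobase in these groups at median RNA of 5.24 and 6.02 FPKM.

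Genes on the X chromosome had lower H3K9ac density. The 307 joined X-linked genes had a median density of 16.9 CPM per kilobase, against 35.0 for 9801 autosomal genes. The ratio was 0.472 in liver A, 0.497 in liver C and 0.470 in liver D. Among single autosomes the median ran from 28.2 for chromosome 7 to 41.2 for chromosome 18. None of the 307, 0%, was in the top decile of density, where the background was 10.0%. Median RNA was also lower, 3.59 against 5.65 FPKM, but among genes at or above the median RNA the medians were 15.8 and 14.9 FPKM and the density ratio was 0.468. By quintiles of RNA from low to high the ratio was 0.714, 0.553, 0.473, 0.496 and 0.460. The median number of CG was 18 on X, from 268 windows, and 22 on autosomes, and regions on X had a median length of 1140 bases against 1488 for all joined genes. The part of these in the difference was not tested. Density is not scaled to DNA copy number, and the input library was not analysed. Fewer copies of the X chromosome and less mark per copy therefore cannot be told apart.

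Single X-linked genes show the pattern within lists. Rps4x and Rpl10, 2 ribosomal protein genes, had 238 ± 26.2 and 410 ± 66.4 FPKM but 9.05 ± 1.67 and 16.1 ± 1.72 CPM per kilobase, where the ribosomal protein list had a median of 37.6. Hdac6 had 10.2 ± 0.563 CPM per kilobase. The labels do not give the sex of the mice. RNA of the Y-linked genes was present in all 4 RNA livers: Eif2s3y read 22.4, 28.03, 30.1 and 31.4 FPKM, and Ddx3y 13.6, 16.7, 16.3 and 13.6. Their regions had 7.37 ± 0.651 and 6.55 ± 0.372 CPM per kilobase. A male cell holds a single X and a single Y, as background.

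Control livers also differed among themselves in a few genes. The median SD of log2 FPKM over the 4 livers was 0.141 for the 6167 genes at or above the median RNA, and 22 of these had an SD of 1 or more. Several of the most variable genes were low in liver D. Socs2, a feedback inhibitor of growth hormone signalling, read 27.6, 22.4, 5.78 and 1.88 FPKM in livers A, B, C and D. Cish, of the same family, read 24.3, 28.9, 13.7 and 0.954. Both are textbook targets of growth hormone in liver. Whether the hormone differed among these livers was not tested. Onecut1, a hepatocyte transcription factor, read 32.6, 35.5, 10.8 and 2.38 FPKM. In all 3 genes livers A and B were high, C lay between and D was lowest.

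H3K9ac at these genes was also lowest in the library labelled D. The Socs2 region, chr10:95414105-95418375 (mm10) over its start, held 277 and 279 CPM in livers A and C and 97.6 in liver D, a ratio of D to the mean of the others of 0.351. That of Cish held 121, 114 and 64.7 CPM. The region over the start of Onecut1, with its middle 2757 bases away, held 423, 412 and 177 CPM. Liver C resembled liver A in the mark at all 3 genes, while its RNA was lower than that of A.

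Further variable genes were lowest in liver D in both assays, with smaller gaps in the mark. Alas1, the first enzyme of haem synthesis, read 85.4, 104, 38.8 and 13.7 FPKM in livers A to D, and its region 104, 101 and 81.9 CPM in livers A, C and D. Gadd45g, a stress response gene, read 71.1, 66.2, 45.1 and 10.7 FPKM and 298, 312 and 211 CPM. Phlda1 read 80.5, 109.8, 90.2 and 15.6 FPKM, with 145, 153 and 135 CPM. Slc25a30, a mitochondrial carrier, read 41.2, 56.6, 20.1 and 6.1 FPKM, with 65.9, 73.9 and 52.6 CPM. Bcl6, a transcriptional repressor, was named after its values were seen. It ran the other way in RNA, at 5.39, 8.45, 13.6 and 32.4 FPKM. Its mark did not, with 259, 279 and 242 CPM in livers A, C and D.

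**Figure D5:**
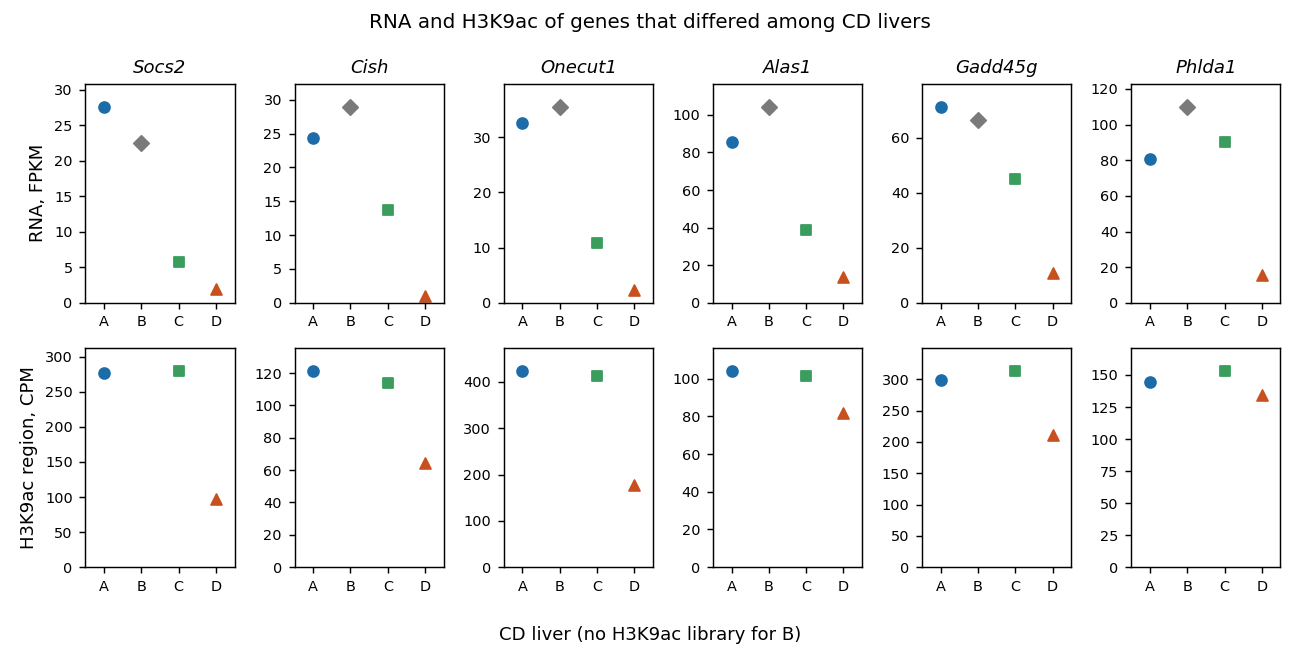
RNA (FPKM, upper row, 4 livers) and CPM of the H3K9ac region with the most counts within 5000 bases of the start (lower row, 3 livers) for 6 genes that varied among CD livers. The 6 were picked from the 10 genes with the largest SD, so their shared order is not a finding about all 10. Liver D is lowest in both rows for each gene shown, most clearly for Socs2, Cish and Onecut1. Of the genes not shown, Saa1 and Cyp4a14 were not lowest in liver D in RNA.

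Of the remaining variable genes, Saa1 and Cyp4a14 were not lowest in liver D in RNA. Saa1, an acute phase protein, was highest in liver A, at 247 FPKM, against 91.6, 23.6 and 42.1 in livers B, C and D. Its region held 83, 33 and 32 counts in livers A, C and D. Mup9 was highest in liver A, at 86.0 against 13.7, 27.6 and 6.36 FPKM in livers B, C and D, so it too was lowest in D. Cyp4a14, a fatty acid hydroxylase, was lowest in liver A, at 6.78 against 61.4, 21.1 and 31.5 FPKM. Neither had a region naming it.

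Over the 100 joined genes of largest SD at or above the median RNA, deviations from the mean of livers A, C and D were compared between assays. The Pearson correlation across genes between RNA and mark of the same letter was 0.452 for A, 0.186 for C and 0.292 for D. Between unlike letters it ran from -0.336 to 0.026. Deviations over 3 livers sum to 0, so negative values between unlike letters follow in part from positive ones between like letters. RNA was lowest in liver D in 43 of these 100 genes, and in 29 of the 43 the mark was lowest in D as well, against 56 of all 100. Over all 5056 joined genes at or above the median RNA the like-letter correlations were 0.207 for A, 0.0039 for C and 0.128 for D, and those between unlike letters ran from -0.219 to 0.089. RNA was lowest in liver D in 1547 of the 5056 genes, the mark in 2156, and both in 638. The difference between the 2 sets of genes was not tested.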

How the data were processed

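RNA-seq (poly(A)) and H3K9ac ChIP-seq tables from livers were used, with genome build mm10 per the submitters' processing notes. The authors deposited raw counts and log2 FPKM per gene in one table, and raw H3K9ac counts over one set of regions in another, per the file headers. The aligner, peak caller, counter and use of strand were not given in the sources used here, nor whether high-fat libraries took part in calling regions. The chromatin input and ATAC libraries were not analysed here. The RNA table held 4999 blank lines, left out. The H3K9ac table held 71 regions listed for more than 1 gene, counted once in totals, and 119 lines whose gene names had become spreadsheet dates, left out of the join.

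FPKM was taken as 2 to the power of the deposited log2 FPKM, and log2 values were averaged over 4 livers for ranking. H3K9ac CPM used the library's total over regions. Where 2 or more regions lay within 1000 bases of a start, the one with the highest CPM was used. Depth was 32632118 to 35643097 RNA counts and 10080116 to 12149497 H3K9ac counts per library. No groups were compared and none was tested. Dixon's critical value was used only to pick out single livers, so other values are descriptive with SD over 4 or 3 libraries. Where nothing says that libraries came from separate animals, the SD may be technical. Sequences came from RefSeq tables on GRCm38.p6, which shares coordinates with mm10. Genes were named by rank in RNA, density, region CPM, the gap between RNA and mark, SD and by list (highest 3 and lowest), and others after their values were seen. The members and the 35 gene lists were chosen with earlier results of these data known, and the X chromosome and 5000-base comparisons after seeing the values. A list of mitochondrially encoded genes had 0 genes with a row. Some single genes that the naming rule would give are not reported here.

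Alternatives changed the window, the region, the scales and the libraries. The density calculation was tested on simulated data. Python 3.11.15, pandas 2.3.3, numpy 2.4.6, matplotlib 3.10.9 and edgeR (TMM factors only) were used.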

Additional observations from a re-analysis of the deposited data

Results flagged for a closer look

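Of 183 named genes, 7 had 1 liver whose gap to the nearest other liver took a share of the range of log2 FPKM above Dixon's critical value for 4 samples, and chance alone gives about 1 in 20, so flags at this number are no sign of a pattern. Phlda1 was low in liver D, at 15.6 FPKM against 80.5, 109.8 and 90.2 (gap 0.841 of the range). Zfp36, which encodes an mRNA decay factor, was high in liver D, at 87.3 FPKM against 38.9, 38.6 and 41.5 (0.911). Gm9776 was high in liver D, at 0.585 FPKM against 0.27, 0.297 and 0.3, on 40 counts or fewer (0.863). Gnmt, a glycine methyltransferase, was low in liver B, at 767 FPKM against 1020.2, 993 and 988 (0.888). Acta2, an actin of smooth muscle and activated stellate cells, was high in liver B, at 1.99 FPKM against 0.952, 0.923 and 1.05 (0.833). Serpina3k was high in liver A, at 9581 FPKM against 7035, 6663 and 7039 (0.849). Cyp2b9 was low in liver C (0.882), where it had 0 counts against 1 in each other liver, so this gap carries no information.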

How the results depend on the processing

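The rank correlation of RNA and density, 0.406, was 0.373 with a window of 5000 bases and 0.484 with RNA as CPM, and -0.026 over joined genes at or above the median of all RNA genes. Leaving out 1 library gave 0.396 to 0.418. The correlation above the median RNA of joined genes, -0.034, was 0.033 with region CPM, 0.062 with RNA as CPM, -0.0039 with 500 bases, -0.061 with 5000 bases and -0.162 in the upper part of the former set; without 1 library it ran from -0.043 to -0.022. The ratio of the top to the bottom decile, 3.46, was 4.77 with region CPM, 3.13 with 5000 bases, 4.00 with RNA as CPM, 3.15 with regions over the start and 0.822 in that upper set; without 1 library it was 3.32 to 3.58. The top against the ninth decile, 0.854, was 0.930 with region CPM, 0.897 with 500 bases, 0.805 with 5000 bases and 0.782 in that upper set; without 1 library it was 0.849 to 0.869. The count high in both, 129, was 193 with RNA as CPM, 152 with region CPM and 31 in that smaller set. Without 1 library it was 125 to 134. The 284 top-decile genes without a region became 496 and 97 with 500 and 5000 bases, and were 280 to 285 without 1 library. The causes of these moves were not tested, beyond the smaller gene set. Of list medians, 384 of 475 density values and 164 of 192 RNA values stayed within the spread between libraries. The 475 include settings that changed only the RNA scale or the RNA libraries. Those cannot move a density median, so the share that stayed overstates how stable the density medians are. TMM scaling, with factors of 0.991 to 1.01, gave 0.348 in place of 0.351 for Socs2. Regions over the start, the correlation above the median and the top-to-ninth ratio were added after seeing the data. No paired analysis was possible because no groups were compared. Depth limits regions of few counts, such as those of Slco1b2 and Inmt.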
